A study of Mus musculus with 6 samples.

Results

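The forkhead genes of the mouse were followed from the naive to the primed side of early pluripotency. Members were the rows of the deposited count table whose Ensembl identifier carries a symbol of the form Fox, then a subclass letter from a to s, then a number. In all, 44 of 51826 Ensembl identifiers met this rule. The rule used names only and no measured value.

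The study compared wild-type V6.5 cells, a mouse embryonic stem cell line, in 2 states. Embryonic stem cells (ESC, 3 libraries) were cultured with LIF and 2i, the latter a GSK3 and a MEK inhibitor that hold naive pluripotency. Epiblast-like cells (EpiLC, 3 libraries) derived from that line and were taken on day 3 after LIF and 2i were withheld, and both states shared a Knockout DMEM medium with 15% serum. The labels do not say whether the libraries came from separate cultures, so p-values measure the spread between these libraries, which may be technical.

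Forkhead factors bind DNA through a winged-helix domain, named after the fork head gene of the fruit fly, whose recognition helix lies in the major groove. Some members open closed chromatin, some carry a signal to the nucleus, and others repress. In the early embryo FOXH1 brings NODAL-activated SMAD proteins to DNA, FOXD3 is needed to keep the epiblast, FOXO factors are held out of the nucleus by insulin and AKT signalling, and FOXM1 drives mitotic genes. Many of the remaining members mark a germ layer or organ.

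The stretch of the domain that the family is recognised by is shown first, as the DNA that encodes it, because most members share it. A run of 8 codons in the recognition helix was matched in 38 of the 44 members. The match required Ile, Val or Leu, then Arg-His-Asn-Leu, then Ser or Cys. The 6 without a match were Foxa1, Foxa2, Foxa3, Foxe1, Foxe3 and Foxr1. The search allowed no other residue at these places, so a miss does not show that the helix is absent. The sequences come from GENCODE M21 transcripts on GRCm38, 5′ to 3′ on the coding strand. Capitals mark each base that differs from the Foxo3 sequence.
Foxo3 (chr10:42197878-42197901, minus strand, exon 3 of 4): aactccatccggcacaacctgtcc
Foxo4 (chrX:101258177-101258200, plus strand, exon 2 of 3): aactccatccgTcacaacctgtcc
Foxk2 (chr11:121296029-121296052, plus strand, exon 5 of 9): aaTtcAatTcgCcacaaTctCtcT
Foxm1 (chr6:128370957-128370980, plus strand, exon 5 of 8): aactcTatTcgTcacaacctTtcT
Foxd3 (chr4:99657153-99657176, plus strand, exon 1 of 1): aacAGcatccgCcacaacctgtcG
Foxh1 (chr15:76669250-76669273, minus strand, exon 2 of 3): GactccatccgCcacaacctTtcc
Foxn3 (chr12:99388403-99388426, minus strand, exon 2 of 6): aactcAGtGAgAcacaacTtgtcA
Foxp4 (chr17:47871328-47871351, minus strand, exon 14 of 17): aaTGccGtGcgCcacaacctCAGc
Foxo4 differed from Foxo3 at 1 of these 24 bases, Foxh1 at 3, Foxd3 at 4 and Foxp4 at 8. The 8 codons of 23 members, Foxo3 included, encode the same residues. Those of Foxh1, Foxn3 and Foxp4 do not. No factor's binding was measured here, and the sequences bear on family membership alone.

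Of the 44 members, 27 had enough reads to be tested, and 17 did not. Levels are CPM, each count divided by its TMM-scaled library total, and totals ran from 9710410 to 22879812 counts before scaling. Genes below an adjusted p of 0.05 were called (edgeR's quasi-likelihood test, Benjamini-Hochberg over 14996 genes). Differences are log2 fold changes of EpiLC over ESC, so a positive value is higher in EpiLC. ESC replicate 3 stood apart from the other ESC libraries, as its counts gave a chi-square over degrees of freedom of 29.0 and 29.7 with them, against 2.83 between replicates 1 and 2. EpiLC pairs lay between 2.30 and 4.42. This measure grows with depth, and each EpiLC library was shallower than each ESC library, so ESC and EpiLC values are not on one scale. Members whose call turns on ESC replicate 3 are given with and without it. The labelled states were checked against markers. The 10 naive markers summed to 2587 to 2717 CPM in ESC and 58.5 to 65.3 CPM in EpiLC, and the 7 formative markers to 137 to 143 and 1207 to 1480 CPM. Of the naive markers 9 were lower and 1, Dppa3, was not called. The 8 core pluripotency genes, 2 higher and 3 lower, summed to 2923 to 3351 and 3188 to 3257 CPM. The 3 lower were Sox2, from 429 ± 41.0 to 37.0 ± 2.82 CPM, Nanog, from 704 ± 42.5 to 242 ± 1.31 CPM, and Pou5f1, from 835 ± 19.1 to 495 ± 5.30 CPM (named after their values were seen).

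More forkhead genes rose than fell. Of the 27 tested members 17 were higher in EpiLC, 11 of them by at least 2-fold, and 5 were lower, 3 of them by at least 2-fold. The other 5 were not called. Of all 14996 genes tested, 64.6% were called, 32.0% higher and 32.6% lower. Calls of 2-fold or more made up 17.0% in the higher direction and 12.4% in the lower one. The median log2 fold change was 0.87 over the tested members and 0.01 over all tested genes. Groups did not overlap in 22 of the 27 members, against 70.2% of all tested genes.

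These counts depend on which members passed the filter on low counts. Of the 27, 18 had a mean of at least 1 CPM in both states, 7 reached it in EpiLC only and 2 in ESC only. The 1 CPM line is not the filter itself. A gene that passed the filter through a single state was more likely to differ, so the tested set is not the family. Among the 13 members with a mean over all libraries of at least 10 CPM, 8 rose, 2 fell and 3 were not called, and their median was 0.36 on the log2 scale. Among the 9503 genes in that range 65.6% were called, 28.4% higher and 37.2% lower, with a median of -0.07. Among the 14 tested members below 10 CPM, 9 were higher and 3 lower. Of 5493 genes in that range 62.9% were called, 38.1% higher and 24.8% lower.

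**Figure D1:**
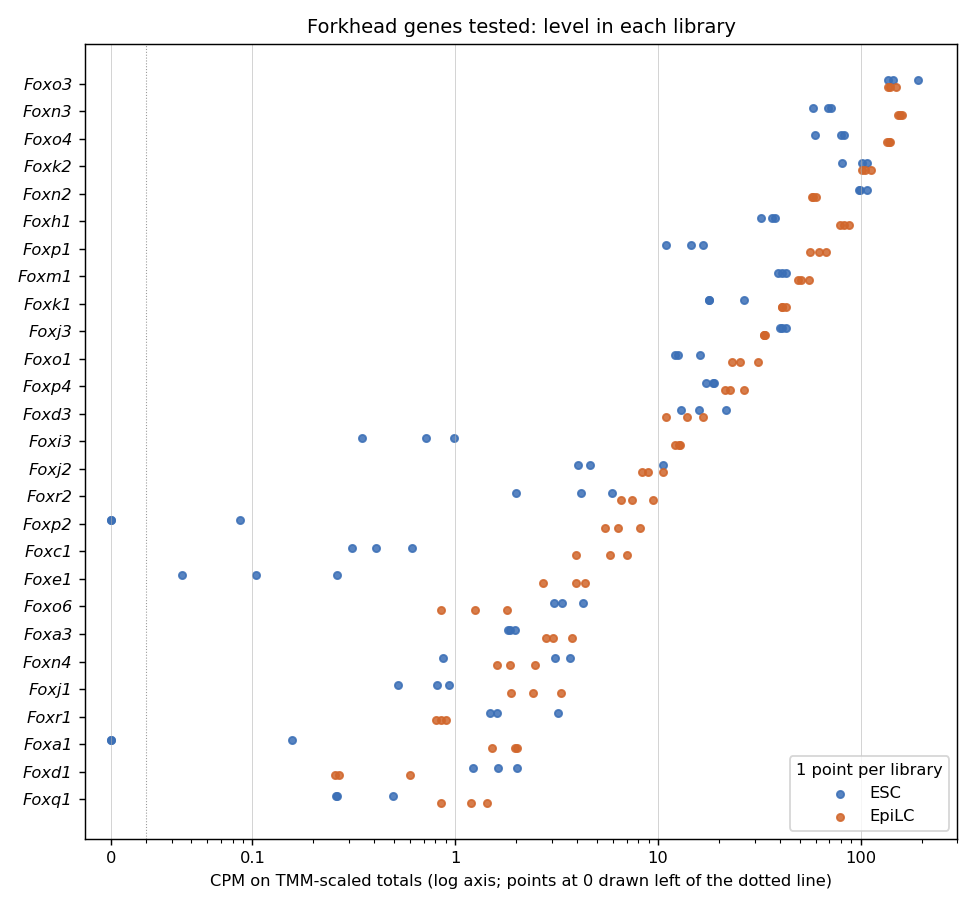
Level of each of the 27 tested forkhead genes in each library, in CPM on a log axis, with 3 blue points for ESC and 3 orange points for EpiLC. Foxo3, Foxn3, Foxo4 and Foxk2 lie at or above 102 CPM in each EpiLC library, while Foxp2 and Foxa1 have ESC libraries at 0.

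Levels of different genes were compared per kilobase of annotated exon. Foxh1 had the highest mean in both states, at 26.0 ± 2.06 CPM per kb in ESC and 60.8 ± 3.18 in EpiLC (mean ± SD, n = 3 libraries). In ESC replicate 3 alone Foxo3 was higher, at 25.2 against 23.7 CPM per kb. In ESC it was followed by Foxo4 (21.2 ± 3.53 CPM per kb), Foxo3 (20.9 ± 3.83), Foxk2 (18.5 ± 2.75) and Foxn2 (13.8 ± 0.700). The libraries of Foxo4, Foxo3 and Foxk2 overlapped. Foxd3 (7.27 ± 1.90 CPM per kb) and Foxm1 (7.11 ± 0.286) came next, and their libraries overlapped as well.

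In EpiLC the order below Foxh1 was Foxo4 (39.5 ± 0.705 CPM per kb), Foxk2 (20.3 ± 1.02), Foxo3 (18.7 ± 0.836), Foxn3 (13.6 ± 0.355) and Foxi3 (9.85 ± 0.325). The libraries of Foxk2 and Foxo3 overlapped, as did those of Foxi3 and Foxm1 (9.02 ± 0.614 CPM per kb). Foxn3 passed Foxn2 (7.97 ± 0.216 CPM per kb), and Foxi3 moved from the 20th to the 6th place among the 44, or to the 8th, behind Foxn2 and Foxm1, with the longest transcript as the length. Foxh1 lay above 84.7% of all tested genes in ESC and above 94.9% in EpiLC on this scale. Summed over the family, the level was 139 to 144 CPM per kb in ESC and 211 to 226 in EpiLC. Foxh1 made up 17.0% to 19.2% of that sum in ESC and 27.3% to 28.3% in EpiLC. With the longest transcript as the length, the 10 highest members were the same 10 in ESC, and 8 of the 10 in EpiLC.

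Foxh1 (ENSMUSG00000033837, chromosome 15, 76668225 to 76669948 in GRCm38, the build of every position here) encodes the DNA-binding partner of SMAD2 and SMAD3 in NODAL signalling. It was at 37.7, 36.4 and 32.3 CPM in ESC replicates 1 to 3 and at 82.6, 78.9 and 87.6 CPM in EpiLC replicates 1 to 3. Each EpiLC library was above each ESC library by at least 2-fold (log2 fold change 1.22, SE 0.08, adjusted p = 6.02e-06). The genes that act with FOXH1 mostly rose as well. Of 10 partner and receptor genes, 7 rose, 1 fell and 2 were not called, beside 32.0% higher and 32.6% lower of all tested genes. Their median was 0.57 on the log2 scale against 0.01 over all genes. Tdgf1, the NODAL co-receptor, rose by a log2 fold change of 1.18, and Acvr2b and Acvr2a, the type II activin receptors, by 1.26 and 0.95. Gtf2i, a general transcription factor that binds FOXH1 complexes, rose from 113 ± 13.1 to 299 ± 7.91 CPM.

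The type I receptor gene Acvr1b was the exception and fell from 70.4 ± 9.76 to 45.8 ± 1.21 CPM (named after its values were seen). Of the SMAD genes Smad3 rose by 0.78 and Smad4 by 0.33 on the log2 scale, while Smad2 stood at 61.7 ± 2.57 and 58.0 ± 2.61 CPM and was not called. These 3 were also named after their values were seen.

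Among 12 known targets of NODAL and FOXH1, 10 were tested, of which 6 were higher, 1 lower and 3 not called (median log2 fold change 1.08). All tested genes were 32.0% higher and 32.6% lower. Fgf8, which encodes a growth factor of the primitive streak, rose from 0.104, 0.225 and 0.523 CPM in ESC replicates 1 to 3 to 28.2, 22.8 and 26.4 CPM in EpiLC (log2 fold change 6.66, SE 0.27, adjusted p = 4.87e-07). Mixl1 rose by 2.52 on the log2 scale. Lefty1 was at 95.4, 81.8 and 6.01 CPM in ESC replicates 1 to 3 and at 422, 448 and 447 CPM in EpiLC. Its log2 fold change was 2.82 (SE 0.70), and 2.3 to 3.25 when a single library was left out. Lefty2, at 152, 132 and 41.4 CPM in ESC and 62.1, 51.2 and 51.2 CPM in EpiLC, was not called. ESC replicate 3 was the lowest ESC library for both Lefty genes. Gsc, the organiser gene, was the 1 lower target (log2 fold change -1.92, named after its values were seen), at 2.54, 2.39 and 6.01 CPM in ESC and 1.0, 0.599 and 1.07 in EpiLC. Leaving out ESC replicate 3 gave 3 lower targets, and leaving out EpiLC replicate 2 gave 0. The 12 genes together summed to 616, 575 and 318 CPM in ESC replicates 1 to 3 and to 1279, 1217 and 1252 CPM in EpiLC. The late targets Lhx1 and Cer1 had 0 counts in all ESC libraries and were not tested. The node and definitive endoderm markers, a tissue where NODAL activity is high, summed to 12.0 to 15.2 CPM in ESC and 10.3 to 13.5 CPM in EpiLC, with Noto and Cer1 at 0 in ESC. Of its 6 tested genes 2 were higher and 3 lower. T, the Brachyury gene, rose from 1.49 ± 1.15 to 6.62 ± 1.62 CPM, while Sox17, Gsc and Chrd fell by 4.31, 1.92 and 1.13 on the log2 scale (named after their values were seen).

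Foxd3 (ENSMUSG00000067261, chromosome 4, 99656299 to 99658622), which the epiblast and neural crest need, was at 13, 16 and 21.7 CPM in ESC and 13.9, 10.9 and 16.6 CPM in EpiLC. The groups overlapped, and the interval of the log2 fold change ran from -0.77 to 0.23 (adjusted p = 0.297). That interval lay within a 2-fold fall or rise. Foxd1, known from the stroma of the kidney, was low throughout and fell from 2.02, 1.62 and 1.22 CPM to 0.602, 0.257 and 0.268 CPM (log2 fold change -2.17, SE 0.40, adjusted p = 0.00152). Its 12 reads in EpiLC against 89 in ESC limit the precision of that fold. Foxd2 had 4 reads in ESC and 10 in EpiLC, and Foxd4 had 0 in every library.

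The 4 FOXO genes, whose products are exported from the nucleus when AKT or SGK kinases phosphorylate them, moved in different directions. Foxo4 (ENSMUSG00000042903, chromosome X, 101254528 to 101260873) was at 82.3, 79.8 and 59.8 CPM in ESC and 135, 138 and 140 CPM in EpiLC, and rose (log2 fold change 0.89, SE 0.12, adjusted p = 2.24e-04). Foxo1 (ENSMUSG00000044167, chromosome 3, 52268336 to 52353221), a positive regulator of Pou5f1 and Sox2 in stem cells, rose from 12.5, 12.1 and 16.1 CPM to 31.1, 25.5 and 23.2 CPM (log2 fold change 0.98, SE 0.15, adjusted p = 6.22e-04). Neither gene's groups overlapped. Pou5f1 and Sox2 themselves were lower in EpiLC, with log2 fold changes of -0.75 and -3.53.

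Foxo3 (ENSMUSG00000048756, chromosome 10, 42181841 to 42276755), linked to quiescence of stem cells and oocytes, was at 145, 137 and 191 CPM in ESC and 136, 140 and 149 CPM in EpiLC. ESC replicate 3 was the highest of the 6, the groups overlapped, and the gene was not called (interval -0.43 to 0.13). Foxo6, a family member best known from the brain, fell from 3.06, 3.38 and 4.27 CPM to 1.81, 0.855 and 1.25 CPM (log2 fold change -1.44, SE 0.28, adjusted p = 0.00228).

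The make-up of the class moved with these values. On the per-kilobase scale Foxo4 made up 37.4% to 52.3% of the FOXO sum in ESC libraries and 63.5% to 64.5% in EpiLC libraries, and Foxo3 41.5% to 55.0% and 29.5% to 31.2%. The lowest ESC share of Foxo4 and the highest of Foxo3 belonged to replicate 3. The sum of the 4 genes was 43.7 to 45.9 CPM per kb in ESC and 61.0 to 62.9 in EpiLC. Shares are given as ranges over libraries, with no test.

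Of 22 regulators of FOXO, 8 were higher, 8 lower and 6 not called. Over all tested genes 32.0% were higher and 32.6% lower. The median log2 fold change of the regulators was -0.05, and 0.02 with library totals. The kinase gene Sgk1 fell from 219, 224 and 386 CPM in ESC to 41.0, 41.4 and 47.1 CPM in EpiLC (log2 fold change -2.67), and Sgk3 fell by 2.14 on that scale. Transcript levels do not show the phosphorylation that places FOXO proteins.

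Of 28 FOXO target genes 25 could be tested, and 8 rose, 10 fell and 7 were not called. The shares over all tested genes were 32.0% higher and 32.6% lower. The median log2 fold change of the targets was -0.02, or 0.01 at the highest when a single library was left out. Irs2, an insulin receptor substrate, rose from 25.6 ± 10.1 to 197 ± 13.6 CPM, and the atrophy ligase gene Fbxo32 from 0.767 ± 0.237 to 7.57 ± 0.485 CPM. Sod2, the mitochondrial superoxide dismutase, fell from 247 ± 5.17 to 55.8 ± 0.682 CPM and Klf2 from 135 ± 22.1 to 2.54 ± 0.469 CPM. Klf2 is also a naive pluripotency gene, and it was the most negative value of the list. The liver targets Igfbp1 and G6pc had 0 counts in all libraries. Pck1 was at 0 in ESC and had too few reads to be tested.

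**Figure D2:**
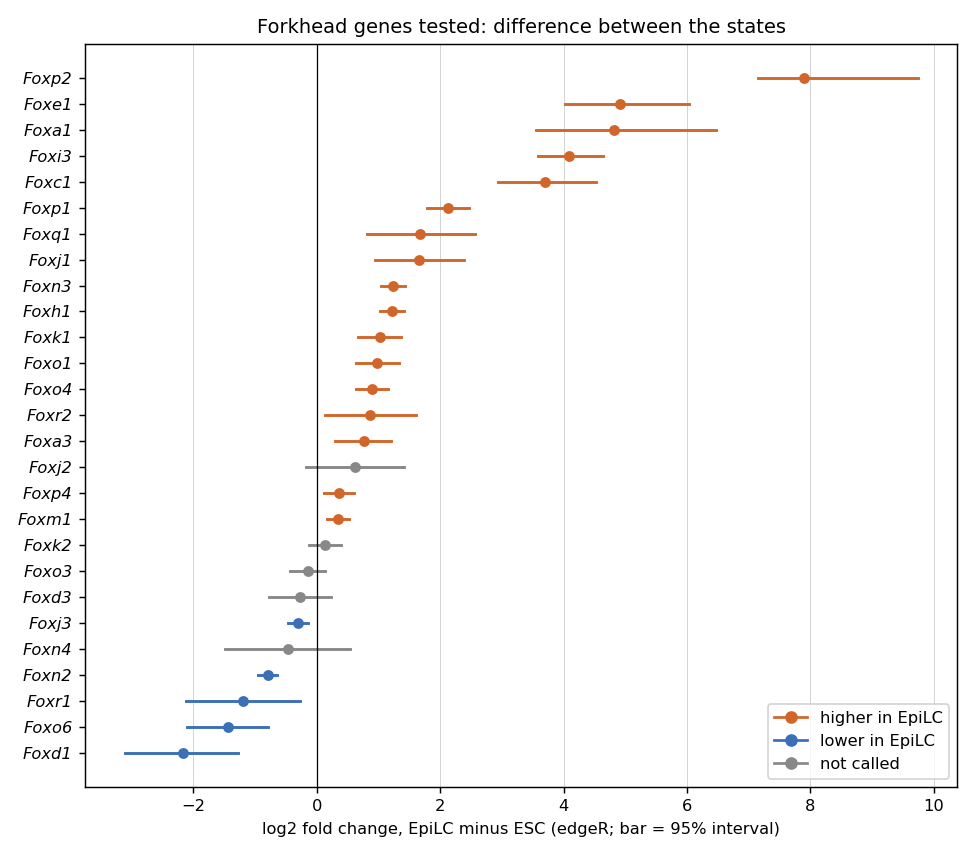
Log2 fold change of EpiLC over ESC for the 27 tested forkhead genes, with the 95% interval of the edgeR fit as a bar. Orange genes were called higher (17), blue genes lower (5) and grey genes were not called (5); Foxp2 lies farthest to the right at 7.90.

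The FOXP genes, which form dimers through a leucine zipper and act as repressors, all rose where they could be tested. Foxp1 (ENSMUSG00000030067, chromosome 6, 98925338 to 99522721), of which stem cells splice a form of their own, was at 14.6, 16.6 and 10.9 CPM in ESC and 67.5, 56.5 and 62.1 CPM in EpiLC, 4.35-fold higher (log2 fold change 2.12, SE 0.15, adjusted p = 6.92e-06). Gene-level counts cannot tell its splice forms apart. Foxp2 (ENSMUSG00000029563, chromosome 6, 14901349 to 15441977), known for its role in vocal and motor circuits, had 1 read in the 3 ESC libraries together and 216 in EpiLC, or 8.13, 5.47 and 6.34 CPM in EpiLC replicates 1 to 3 (ratio 348, exact 95% interval 61.8 to 13812, counting error only). The fitted log2 fold change was 7.90 (adjusted p = 1.32e-06). ESC replicate 3 held the 1 read. Without it ESC was at 0, which makes EpiLC at least 90.9-fold higher against 3 counts over the other 2 ESC libraries. Without ESC replicate 2 the fitted value was 7.27.

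Foxp4 rose least, from 18.6, 18.9 and 17.3 CPM to 26.6, 21.3 and 22.7 CPM (log2 fold change 0.36, SE 0.11, adjusted p = 0.0193), and it lost its call without ESC replicate 1 (adjusted p = 0.0538), without EpiLC replicate 1 (0.0730) or with no low-count filter (0.0980). Foxp3, the regulatory T cell factor, had 2 and 4 reads. Foxp1 made up 18.3% to 24% of the FOXP sum per kb in ESC and 45.3% to 47.4% in EpiLC, and Foxp4 76.0% to 81.2% and 48.3% to 49.9%. The sum itself was 4.34 to 5.04 CPM per kb in ESC and 8.80 to 10.8 in EpiLC. The order of the pair in EpiLC depends on the length used. With the longest transcript in place of all annotated exon, an alternative chosen after seeing the data, Foxp1 made up 25.8% to 32.9% in ESC and 54.4% to 56.6% in EpiLC, and Foxp4 67.1% to 73.6% and 37.1% to 38.5%.

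In the FOXN class, Foxn3 and Foxn2 changed places. Foxn3 (ENSMUSG00000033713, chromosome 12, 99190078 to 99563582), which encodes a repressor first found as a checkpoint suppressor, rose from 71.1, 69.2 and 58.4 CPM to 160, 152 and 157 CPM (log2 fold change 1.23, SE 0.08, adjusted p = 6.35e-06). Foxn2 (ENSMUSG00000034998, chromosome 17, 88440711 to 88490533), its closest relative, fell from 99.7, 98.0 and 108 CPM to 58.3, 57.2 and 60.4 CPM (log2 fold change -0.79, SE 0.07, adjusted p = 2.02e-05). In each ESC library Foxn2 was the larger part of the class per kb (65.2% to 73.1%), and in each EpiLC library Foxn3 was (60.8% to 62.2%). The sum of the class was 20.0 to 20.7 CPM per kb in ESC and 21.7 to 22.4 in EpiLC.

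Foxn4, a factor of retinal and spinal progenitors, was at 3.11, 3.69 and 0.871 CPM in ESC and 1.61, 2.48 and 1.87 CPM in EpiLC. ESC replicate 3 was the lowest of all 6, and the gene was not called with it (adjusted p = 0.376) and was called lower without it (log2 fold change -0.78, adjusted p = 0.00563). Foxn1, the thymus factor, had 2 reads in each state.

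**Figure D3:**
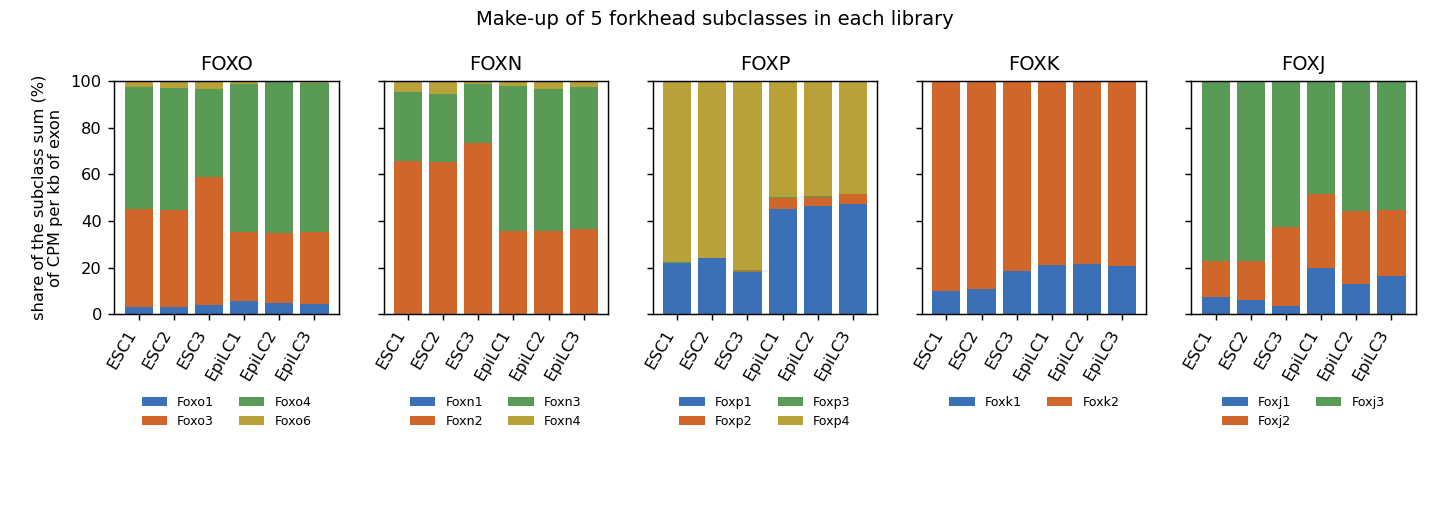
Share of each gene in the summed level (CPM per kb of exon) of its subclass, in percent, for 5 subclasses and each of the 6 libraries. Foxn3 replaces Foxn2 as the larger part between the 3 ESC bars and the 3 EpiLC bars, Foxp1 rises from at most 24% to at least 45.3%, and in FOXO, FOXK and FOXJ the bar of ESC replicate 3 differs from those of replicates 1 and 2.

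The FOXK genes encode repressors that recruit SIN3 and BAP1 complexes and compete with FOXO at some targets. Foxk2 (ENSMUSG00000039275, chromosome 11, 121259990 to 121309896) was at 108, 102 and 80.8 CPM in ESC and 105, 102 and 113 CPM in EpiLC, and was not called (interval -0.12 to 0.39). Foxk1 (ENSMUSG00000056493, chromosome 5, 142401497 to 142462011) rose from 17.8, 17.9 and 26.5 CPM to 40.7, 41.0 and 42.8 CPM (log2 fold change 1.02, SE 0.15, adjusted p = 5.16e-04), with ESC replicate 3 the highest of its group. Foxk2 nevertheless remained the larger part per kb, at 81.5% to 89.8% of the pair in ESC and 78.3% to 79.2% in EpiLC.

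The corepressors and cofactors of forkhead proteins were spread around 0. Of 21 tested, 4 rose, 8 fell and 9 were not called, and their median was -0.08 on the log2 scale. Among all tested genes 32.0% were higher and 32.6% lower. The count of 4 higher was 8 with upper quartile scaling, with library totals and without ESC replicate 3. Aes, a short Groucho-type protein, fell from 148 ± 2.57 to 23.6 ± 3.87 CPM. Mta1, a NuRD subunit, rose from 43.3 ± 1.70 to 106 ± 8.06 CPM. The BAP1 partner Asxl1 rose by 0.77 and Hcfc1 by 0.67 on the log2 scale. The SIN3 scaffold gene Sin3b was not called (211 ± 44.0 and 236 ± 8.73 CPM).

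Foxm1 (ENSMUSG00000001517, chromosome 6, 128362967 to 128376146), the activator of mitotic genes, was at 40.9, 42.6 and 39.3 CPM in ESC and 55.8, 48.9 and 51.0 CPM in EpiLC. The rise was small but the groups did not overlap (log2 fold change 0.34, SE 0.08, adjusted p = 0.00548). With no low-count filter the log2 fold change was 0.27 and the call was lost (adjusted p = 0.0604). Of its 24 mitotic targets 6 rose, 10 fell and 8 were not called, and their median was -0.13 on the log2 scale. Among all genes with a mean of at least 10 CPM, 28.4% were higher and 37.2% lower. The count of 10 lower targets ranged from 7 to 14 when a single library was left out. Mki67, the proliferation marker, and Cks1b rose by 1.06 and 0.93. Birc5, which encodes survivin, and the phosphatase gene Cdc25c both fell by 0.55 on the log2 scale. Foxm1 also shares a divergent start with Rhno1, a gene of the DNA damage response whose start lies 56 bases away. Rhno1 was at 32.7 ± 6.18 and 40.7 ± 3.03 CPM and was not called (log2 fold change 0.31, adjusted p = 0.0857).

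Of the FOXJ genes, Foxj1, the switch of motile cilia, rose from 0.934, 0.811 and 0.523 CPM to 3.31, 1.88 and 2.41 CPM (log2 fold change 1.65, SE 0.31, adjusted p = 0.00171). It remained a minor member, at 82 reads in all EpiLC libraries. Of 20 motile cilia genes listed, 12 could be tested, and 3 rose, 5 fell and 4 were not called (median log2 fold change -0.36). The shares over all tested genes were 32.0% higher and 32.6% lower. Tekt1 fell from 11.8 ± 1.43 to 0.498 ± 0.459 CPM, Hydin from 11.3 ± 3.57 to 0.932 ± 0.440 CPM, Rfx2 from 28.5 ± 3.80 to 2.44 ± 0.316 CPM and Dnaic2 from 5.61 ± 0.679 to 0.968 ± 0.180 CPM. The log2 fold change of Tekt1 was -4.48, and -5.58 without EpiLC replicate 2. Mcidas, a master gene of multiciliated cells, was at 0 in all ESC libraries and had 0, 6 and 3 reads in EpiLC.

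Foxj3 (ENSMUSG00000032998, chromosome 4, 119537004 to 119629119), a broadly expressed member, fell slightly from 40.9, 43.0 and 40.2 CPM to 33.4, 33.2 and 33.9 CPM (log2 fold change -0.30, SE 0.07, adjusted p = 0.00597). Foxj2 was at 4.05, 4.60 and 10.6 CPM in ESC and 10.6, 8.98 and 8.39 CPM in EpiLC. ESC replicate 3 alone reached the EpiLC range, and Foxj2 was called higher without it (log2 fold change 1.08, adjusted p = 1.10e-05) and not with it (adjusted p = 0.144).

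A group of tissue factors that were near 0 in ESC rose in EpiLC to low levels. Foxi3 (ENSMUSG00000055874, chromosome 6, 70956531 to 70961066), known from ectodermal placodes and the pharyngeal arches, reached the highest level of these, with 0.986, 0.721 and 0.348 CPM in ESC and 12.7, 12.1 and 12.9 CPM in EpiLC (log2 fold change 4.09, SE 0.23, adjusted p = 2.23e-06). Foxc1 (ENSMUSG00000050295, chromosome 13, 31806633 to 31812476), a factor of mesoderm and of the anterior eye, rose from 0.311, 0.406 and 0.610 CPM to 7.03, 3.93 and 5.80 CPM (log2 fold change 3.70, SE 0.34, adjusted p = 3.41e-05). Foxe1, the thyroid and palate factor, rose from 0.104, 0.0451 and 0.261 CPM to 2.71, 4.36 and 3.93 CPM (log2 fold change 4.92, SE 0.44, adjusted p = 1.63e-05), and the fold change was 5.51 once ESC replicate 3 was left out. In all 3 genes the EpiLC libraries agree more closely in proportion than the ESC libraries, where few reads were counted.

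Foxa1, a pioneer factor of endoderm, had 3 reads in ESC, all in replicate 1, and 60 in EpiLC, or 2.01, 1.97 and 1.52 CPM (ratio 32.2, exact 95% interval 10.5 to 161). The fitted log2 fold change was 4.81 (adjusted p = 8.20e-05). Without ESC replicate 1 ESC was at 0, which makes EpiLC at least 20.5-fold higher against 3 counts over the other 2 ESC libraries. Without ESC replicate 2 the fitted value was 4.09. Foxa3 rose from 1.87, 1.98 and 1.83 CPM to 2.81, 3.76 and 3.04 CPM (log2 fold change 0.76, SE 0.20, adjusted p = 0.00967), and the call was lost without EpiLC replicate 2 (adjusted p = 0.0548). Foxa2, which marks the node and definitive endoderm, was not tested, with 12 reads in ESC, 10 of them in replicate 2, and 10 in EpiLC. Foxq1, an epithelial factor, rose from 0.259, 0.496 and 0.261 CPM to 1.20, 0.855 and 1.43 CPM (log2 fold change 1.67, SE 0.38, adjusted p = 0.00467).

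In bulk RNA, fewer cells of a type and less RNA per cell cannot be told apart. Markers of the tissues in which these factors are known are therefore given beside them. Primitive endoderm markers summed to 8.61 to 13.3 CPM in ESC and 17.1 to 20.0 CPM in EpiLC, with 2 of 5 tested higher and 2 lower. Dab2 rose by 4.41 on the log2 scale, Sox17 fell from 1.46 ± 0.474 to 0.0595 ± 0.103 CPM, and Afp was at 0 in all 6 libraries. Mesoderm markers summed to 2.80 to 5.92 and 2.48 to 5.12 CPM, with 1 of 8 abundant enough to test. Fibroblast markers summed to 58.1 to 74.3 and 54.4 to 61.2 CPM, with 4 of 7 tested higher and 2 lower. That sum was carried by Fbln1, which fell from 55.1 ± 9.99 to 34.1 ± 2.91 CPM. Other members rose from near 0, Col1a2 from 0.140 ± 0.0442 to 3.83 ± 0.621 CPM and Acta2 from 0.0346 ± 0.0599 to 6.05 ± 0.969 CPM, and Dcn had 0 reads in ESC and 40, 56 and 47 in EpiLC. Postn and Fap were at 0 in ESC as well, and Lum and Fap in EpiLC. The marker genes given with values here were named after their values were seen. Neural markers summed to 97.9 to 136 and 432 to 470 CPM, with 4 of 6 tested higher and 0 lower, and Dcx was at 0 in ESC. Trophectoderm markers summed to 53.5 to 60.1 and 13.4 to 14.7 CPM, with 1 of 5 tested higher and 3 lower, and Elf5 was at 0 in EpiLC. The part of such cells in the forkhead values was not tested.

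The FOXR genes, whose known expression is in germ cells and the early embryo, moved apart. Foxr1 fell from 1.61, 1.49 and 3.22 CPM to 0.903, 0.855 and 0.804 CPM (log2 fold change -1.19, SE 0.40, adjusted p = 0.0296), with ESC replicate 3 the highest. X-linked Foxr2 rose from 5.97, 4.19 and 2.00 CPM to 9.43, 6.59 and 7.41 CPM (log2 fold change 0.87, SE 0.32, adjusted p = 0.0404), with ESC replicate 3 the lowest. Both calls were marginal. Foxr1 was not called when any single EpiLC library was left out (adjusted p = 0.0760 to 0.0892). Foxr2 was not called without ESC replicate 2 or any single EpiLC library (0.0612 to 0.142) or with no low-count filter (0.0548).

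The 17 untested members had means below 1 CPM in both states and at most 10 reads in any library. Foxd4, Foxi1 and Foxl1 had 0 counts in all 6 libraries, where 3 counts correspond to 0.135 to 0.301 CPM. Foxb1, a factor of the diencephalon and spinal cord, had 0 reads in ESC and 9, 5 and 7 in EpiLC, which is at least 11.3-fold higher against 3 counts over the ESC group. Foxf1 and Foxf2, factors of visceral mesenchyme, had 5 reads against 26 (ratio 8.38, exact 95% interval 3.17 to 27.9) and 1 read against 17 (ratio 27.4, exact 95% interval 4.29 to 1145). Foxc2, a factor of lymphatic vessels, went the other way, with 7, 8 and 8 reads in ESC and 0, 2 and 0 in EpiLC (ratio 7.14, exact 95% interval 1.76 to 62.4). These intervals cover counting error only.

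With no low-count filter 14 of the 17 entered the test. Foxb1, Foxf1, Foxf2 and Foxi2 were then called higher, Foxc2 was called lower, and 9 were not called. In that fit 24 of 41 members were called, among 10703 genes called in all. The number of genes tested in that fit is not given here, so the 24 cannot be set against a share over all genes. The shares given above belong to the filtered fit. The share called among genes of such low counts is not given here, so these calls have no background to be read against. Foxi2 had 6 reads in EpiLC and 0 in ESC. Among the remaining untested members were Foxa2, Foxd2, Foxb2, Foxe3, Foxl2, Foxn1, Foxp3 and Foxs1, and none of these held more than 12 reads in a state.

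Several members lie next to each other. On chromosome 13 Foxq1, Foxf2 and Foxc1 follow each other with gaps of 64.8 and 175 kb, and all had a higher mean in EpiLC. On chromosome 8 Foxf1, Foxc2 and Foxl1 are 28.0 and 9.04 kb apart. There Foxf1 had more reads in EpiLC, Foxc2 fewer, and Foxl1 none in either state. On chromosome 4 Foxd2 and Foxe3 lie 16.3 kb apart and held 4 and 0 reads in ESC and 10 and 1 in EpiLC.

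Genes that start near a member or overlap it were read for the same comparison. Foxd2os, a noncoding RNA that starts 384 bases from Foxd2 on the other strand, had 5 reads in ESC and 40 in EpiLC (log2 fold change 3.57, SE 0.42, adjusted p = 6.38e-05). Ccdc22 and Ppp1r3f, which overlap Foxp3 on the other strand, were at 3.88 ± 0.936 and 1.11 ± 0.0772 CPM in ESC and 2.94 ± 1.09 and 1.33 ± 0.560 CPM in EpiLC, and were not called. Gm12688, a noncoding RNA that starts 1316 bases from Foxd3, was at 2.37 ± 0.407 and 2.37 ± 0.175 CPM and, as with Foxd3, was not called. Ppp1r16a, whose start lies 1667 bases from that of Foxh1, fell from 33.8 ± 5.93 to 22.4 ± 2.19 CPM while Foxh1 rose. Sympk, 839 bases from Foxa3, fell by 0.20 on the log2 scale.

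Some annotated transcripts lie within a member and on its strand. Gm38034 within Foxo1 rose by 2.05, and Gm47138 and Gm47139 within Foxn3 by 1.47 and 1.98 on the log2 scale, in the direction of their hosts. Gm20682 within Foxn3 was at 0.330 ± 0.0963 and 1.10 ± 0.469 CPM and was not tested. Reads of unspliced host RNA would fall on such features, so these values are uncertain. In all, 12 members overlap a gene on the other strand and 12 a gene on their own strand. The strand setting of the counting is not given in the sources used here, so reads of such partners may not be told apart.

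Promoters were available for 28 of the 44 members, as RefSeq sequences on GRCm38.p6 from 250 bases before to 50 after the start. Some of these starts lie inside the annotated gene, so a window need not be the main promoter. The windows of Foxa1, Foxn3 and the first Foxp1 entry end at 57546361, 99450324 and 99028548. Those genes start, on the minus strand, at 57546916, 99563582 and 99522721. The median CpG ratio of the 28, observed over expected, was 0.677 (first entry per gene), against 0.389 for all 27025 promoters and 0.598 for 16522 of protein-coding genes. A ratio above 0.6 was found in 18 of the 28 (64.3%), against 36.4% of all promoters and 49.8% of the protein-coding ones. The forkhead motif TGTTTAC, or GTAAACA on the other strand, was found in 1 of the 28 (3.57%), that of Foxa1, against 3.55% of all promoters. Foxa1 is shown with that match in capitals. Foxi3 and Foxr2, both called higher, are shown with each CG in capitals because they differ in CpG content, at 31 and 3 CG and ratios of 0.871 and 0.151. Each runs 5′ to 3′ on the strand of its gene.
Foxa1 (chr12:57546062-57546361, minus strand): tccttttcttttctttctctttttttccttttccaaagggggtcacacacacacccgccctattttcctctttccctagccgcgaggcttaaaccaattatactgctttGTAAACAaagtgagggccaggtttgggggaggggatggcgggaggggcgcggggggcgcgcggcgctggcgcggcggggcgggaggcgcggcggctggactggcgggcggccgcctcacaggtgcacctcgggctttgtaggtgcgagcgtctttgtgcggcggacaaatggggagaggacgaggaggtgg
Foxi3 (chr6:70956356-70956655, plus strand): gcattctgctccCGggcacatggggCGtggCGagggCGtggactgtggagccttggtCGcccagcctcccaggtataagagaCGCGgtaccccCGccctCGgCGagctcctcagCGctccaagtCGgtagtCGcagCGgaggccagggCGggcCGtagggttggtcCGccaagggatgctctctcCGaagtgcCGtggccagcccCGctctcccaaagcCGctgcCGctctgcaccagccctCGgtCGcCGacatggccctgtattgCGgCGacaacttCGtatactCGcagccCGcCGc
Foxr2 (chrX:153118538-153118837, plus strand): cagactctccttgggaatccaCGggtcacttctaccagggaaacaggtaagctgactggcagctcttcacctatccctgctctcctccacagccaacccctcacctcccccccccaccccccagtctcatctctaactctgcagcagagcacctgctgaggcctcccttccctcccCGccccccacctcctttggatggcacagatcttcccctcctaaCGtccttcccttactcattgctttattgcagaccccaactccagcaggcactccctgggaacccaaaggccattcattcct
A match describes these letters only, and binding and methylation were not measured in these libraries.

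**Figure D4:**
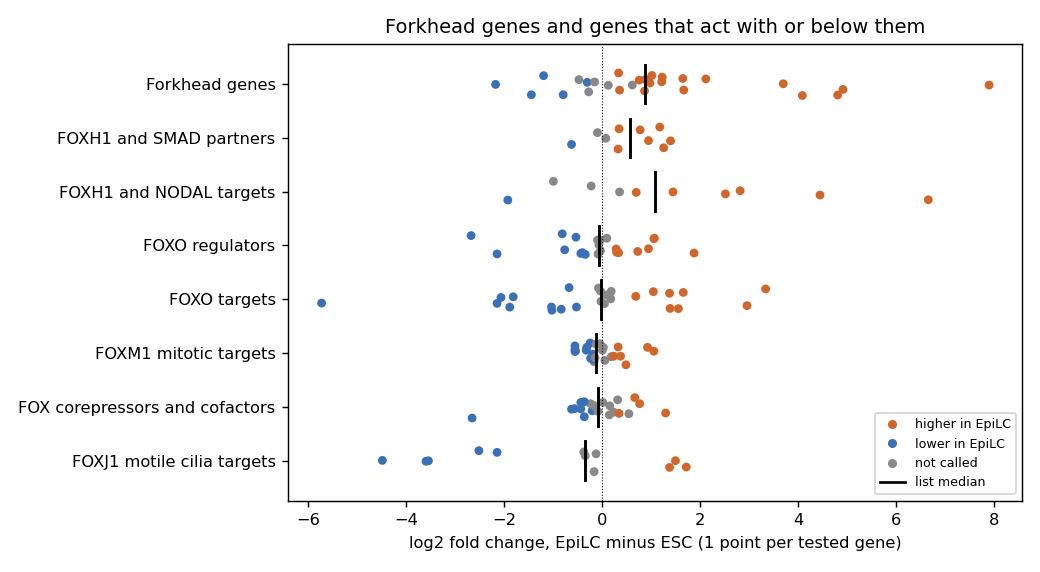
Log2 fold change of EpiLC over ESC for the tested forkhead genes and for the tested genes of 7 lists of genes linked to them. Each point is a gene, and a bar marks the median of each row. The forkhead median is 0.87. List medians run from -0.36, for the motile cilia genes (labelled FOXJ1 motile cilia targets), to 1.08 for the FOXH1 and NODAL targets. The dotted line is at 0, and the median over all tested genes, 0.01, is not drawn.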

How the data were processed

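RNA-seq was done on 3 ESC and 3 EpiLC libraries, with RNA taken up in Trizol, ribosomal RNA removed and stranded libraries made, per the labels' protocols. The deposited values are whole-number counts per Ensembl gene. Per the submitters' processing notes the authors used cutadapt, STAR, featureCounts and DESeq2 with mm10, and no version or setting is stated there. Library totals ran from 9710410 to 22879812 counts, and 3 counts equal 0.135 to 0.301 CPM. The 92 spike-in rows were left out. Symbols came from GENCODE M21 (GRCm38), which matched 51633 of 51826 identifiers.

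Genes were filtered with filterByExpr, scaled with TMM and tested with edgeR 4.0.16 (quasi-likelihood, Benjamini-Hochberg) in R 4.3.3, with state as the single term. The fit was tested on simulated data. Alternatives were upper quartile scaling, library totals, no low-count filter, DESeq2 1.42.0, limma-voom (limma 3.58.1), a replicate block and leaving out each library. Named genes were the members, neighbours within 5 kb that reached 1 CPM in a state, and per list up to 4 called genes by absolute fold change that did so. Uncalled list genes may be given as values, and others are marked as chosen after their values were seen. The members and lists were chosen with earlier results of these data known. Some genes and sequences that these rules name, 1 untested member among them, are not reported here.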

Additional observations from a re-analysis of the deposited data

How the results depend on the processing

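Over 12 alternatives and 55 followed genes, 645 of 660 values kept their direction and their side of the threshold, 13 lost the call, 2 gained one and 0 changed sign. The median change in a gene's log2 fold change, over the genes in both fits, was at most 0.07 in size. With no low-count filter the median of the forkhead genes was 0.78, and when 1 library was left out it ran from 0.75 to 0.91, with 15 to 18 forkhead genes higher and 4 to 6 lower. For the FOXH1 and SMAD partners the median was 0.63 with library totals, 0.50 with no filter and 0.52 to 0.63 with 1 library left out, with 1 to 2 lower. For the FOXH1 and NODAL targets 2 were lower and the median was 1.91 with no filter, and 0 to 3 were lower with 1 library left out. For the FOXO regulators the median was 0.02 with library totals and -0.12 with no filter, where 5 were higher. For the FOXM1 mitotic targets the median was -0.06 with library totals and -0.20 with no filter. For the FOX corepressors and cofactors 8 were higher under upper quartile scaling and 8 under library totals, the median was -0.19 with no filter, and with 1 library left out 4 to 8 were higher and the median ran from -0.16 to -0.06. For the motile cilia genes the median ran from -0.53 to -0.26 with 1 library left out. With no filter 41 forkhead genes entered instead of 27, and Lhx1 and Cer1, with 0 reads in ESC, entered the FOXH1 and NODAL targets. Those medians are therefore over larger sets of genes than the main ones. The cause of the moves was not tested. Replicate numbers are shared between the states, but same-numbered libraries did not deviate together (r across genes of -0.102, 0.00104 and -0.17), so the numbers were not taken as pairs. With a replicate block 22 forkhead genes were called, as without it, 9231 of all genes were called against 9686, and no followed gene changed its call. At this depth a gene under 0.301 CPM may go uncounted in the shallowest library.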
